A study of Mus musculus with 24 samples.

Results

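The accessible chromatin of B16-OVA cells was mapped by ATAC-seq in 6 libraries, 3 from cells with a hairpin against Fto (shFto) and 3 from cells with a control hairpin (shNC). These are 6 of the 24 samples of the series, taken by their labels. The 6 RNA-seq libraries of the same kinds of cell, again 3 shFto and 3 shNC, were used beside them. B16-OVA is a mouse melanoma line of C57BL/6 background that carries ovalbumin, and both kinds of cell were grown in medium with 5 µg/mL puromycin. Neither kind received a compound before ATAC-seq, as far as the labels say. Which shFto line gave the libraries, and whether the 3 libraries of a group are separate cultures, is not stated in the labels. The p-values then measure the spread among these 6 libraries, and that spread may be technical.

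ATAC-seq uses a transposase that inserts adapters where DNA is not wrapped in nucleosomes, so that reads pile up at active promoters and enhancers. FTO is a demethylase of RNA that acts on N6-methyladenosine. In melanocytes and melanoma cells, MITF and SOX10 drive the pigment genes, MITF through the M-box, while AP-1 and C/EBP factors bind many enhancers in response to signals.

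Strength of a peak is described below by its rank within a library, and 24 promoter windows lay in regions stronger and 25 in regions weaker in shFto cells. The windows of Trpm1, Aldh1l1, Myo7a, Emp1 and Sgsm1 are printed because they lie wholly inside such a region and hold a match to at least 1 of 3 motifs, and because RNA of these genes also changed. They were chosen by hand after their values were seen, and Chn2, Tada2a and Arap2 met the same conditions. Each runs from 250 bases before the start to 50 after it, on the gene's strand, 5′ to 3′, from RefSeq on GRCm38.p6. Capitals mark matches, on either strand, to the AP-1 motif (TGANTCA), the C/EBP motif (TTGCNNAA) and the M-box (CATGTG), and no matches overlap here. Trpm1 encodes the melanocyte cation channel melastatin, and its window (chr7:64185209-64185508, plus strand) holds 1 C/EBP match and 1 M-box. Aldh1l1 encodes a folate enzyme, and its window (chr6:90550543-90550842, plus strand) holds 1 C/EBP match. Myo7a encodes an unconventional myosin of the inner ear and retina, and its window (chr7:98109199-98109498, minus strand) holds 2 M-boxes. Emp1, an epithelial membrane protein (chr6:135362681-135362980, plus strand), has 2 AP-1 matches. Sgsm1, a modulator of small GTPases (chr5:113280552-113280851, minus strand), has 1.
Trpm1: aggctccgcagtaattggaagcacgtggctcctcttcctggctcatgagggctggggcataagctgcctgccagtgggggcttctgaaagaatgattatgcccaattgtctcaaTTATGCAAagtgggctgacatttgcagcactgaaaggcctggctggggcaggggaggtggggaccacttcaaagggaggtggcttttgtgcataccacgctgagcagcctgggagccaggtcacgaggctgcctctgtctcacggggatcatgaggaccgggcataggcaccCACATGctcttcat
Aldh1l1: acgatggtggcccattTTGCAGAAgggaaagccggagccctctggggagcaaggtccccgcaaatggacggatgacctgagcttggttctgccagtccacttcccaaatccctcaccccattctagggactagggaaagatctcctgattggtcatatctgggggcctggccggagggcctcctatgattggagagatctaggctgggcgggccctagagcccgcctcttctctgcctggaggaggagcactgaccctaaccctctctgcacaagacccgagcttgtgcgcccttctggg
Myo7a: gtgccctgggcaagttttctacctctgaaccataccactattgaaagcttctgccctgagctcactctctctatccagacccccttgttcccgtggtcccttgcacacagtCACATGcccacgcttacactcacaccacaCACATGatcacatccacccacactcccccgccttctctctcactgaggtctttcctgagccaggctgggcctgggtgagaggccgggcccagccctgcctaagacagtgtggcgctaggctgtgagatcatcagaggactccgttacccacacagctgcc
Emp1: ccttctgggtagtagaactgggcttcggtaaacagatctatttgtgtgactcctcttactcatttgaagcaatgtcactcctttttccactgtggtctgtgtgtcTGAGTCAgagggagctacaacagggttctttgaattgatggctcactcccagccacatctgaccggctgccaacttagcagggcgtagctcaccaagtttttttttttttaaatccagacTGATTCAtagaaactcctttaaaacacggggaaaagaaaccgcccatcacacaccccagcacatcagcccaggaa
Sgsm1: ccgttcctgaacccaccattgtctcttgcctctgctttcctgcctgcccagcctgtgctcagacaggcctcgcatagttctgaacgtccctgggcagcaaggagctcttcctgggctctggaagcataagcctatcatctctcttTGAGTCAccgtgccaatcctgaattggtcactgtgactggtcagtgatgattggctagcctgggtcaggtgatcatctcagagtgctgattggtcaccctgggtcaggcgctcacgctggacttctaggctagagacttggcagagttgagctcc

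Of 21263 RefSeq promoter windows, 10209 overlapped a region with a peak in all 6 libraries. AP-1 matches stood in 6.99% of all windows, in 4.23% of those 10209, in 3 of 24 windows whose region was stronger in shFto and in 3 of 25 whose region was weaker. The C/EBP motif stood in 10.2% and 7.51%, and in 4 of 24 and 1 of 25. The M-box stood in 11.5% and 7.19%, and in 4 of 24 and 2 of 25. The GC box (GGGCGG) stood in 46.2% of all windows and in 69.3% of the windows with a region in all 6 libraries, against 14 of 24 and 12 of 25. A match is a description of letters and not a bound site, and some of these windows belong to 1 gene.

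The shFto libraries held fewer peaks than the shNC libraries. There were 70508, 72055 and 67427 peaks in the shFto libraries and 81944, 77226 and 74551 in the shNC libraries, so that the groups did not overlap. The means were 69997 ± 2356 and 77907 ± 3743 (SD, n = 3 each), a difference of -10.2% of the shNC mean (two-sided exact permutation p = 0.1, the smallest that 3 against 3 allows). Peaks covered 26.4, 26.3 and 25.3 Mb in shFto and 30.8, 29.0 and 27.4 Mb in shNC cells (exact permutation p = 0.1). When only peaks with a -log10 q of at least 5 were counted, the numbers were 67597, 67222 and 64792 against 76512, 74232 and 66398. The ranges then overlapped, through the third shNC library (exact permutation p = 0.3).

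The number of reads behind the lists is unknown, and the -log10 q of a peak depends on it. At rank 1000 the -log10 q was 316, 274 and 297 in shFto and 388, 355 and 298 in shNC libraries. The first 2 shNC libraries were thus above all the others, and the third was close to the shFto libraries. The part of depth in the peak numbers was not tested, and all comparisons below use the 67427 strongest peaks of each library, the length of the shortest list, ranked by -log10 q.

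At equal numbers, shFto peaks were narrower. The median width was 327, 324 and 320 bp in shFto and 350, 342 and 332 bp in shNC libraries, without overlap (exact permutation p = 0.1). Away from gene starts the median widths were 308, 307 and 302 bp against 334, 325 and 315 bp. At gene starts, within 1 kb, they were 501, 481 and 485 bp against 512, 504 and 480 bp, and those ranges overlapped. Over all peaks of each list the medians were 320.5, 314 and 320 bp against 321, 322 and 317 bp, with a difference of -1.83 bp (exact permutation p = 0.5). With a -log10 q of at least 5, where list lengths also differ, it was -6 bp without overlap (exact permutation p = 0.1). The size of the difference in width thus varied with the lists compared. The lists of equal number ended at unlike strength, at a -log10 q of 5.16, 4.87 and 1.42 in shFto and 7.59, 6.74 and 4.97 in shNC libraries. The part of this in the widths was not tested.

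**Figure D1:**
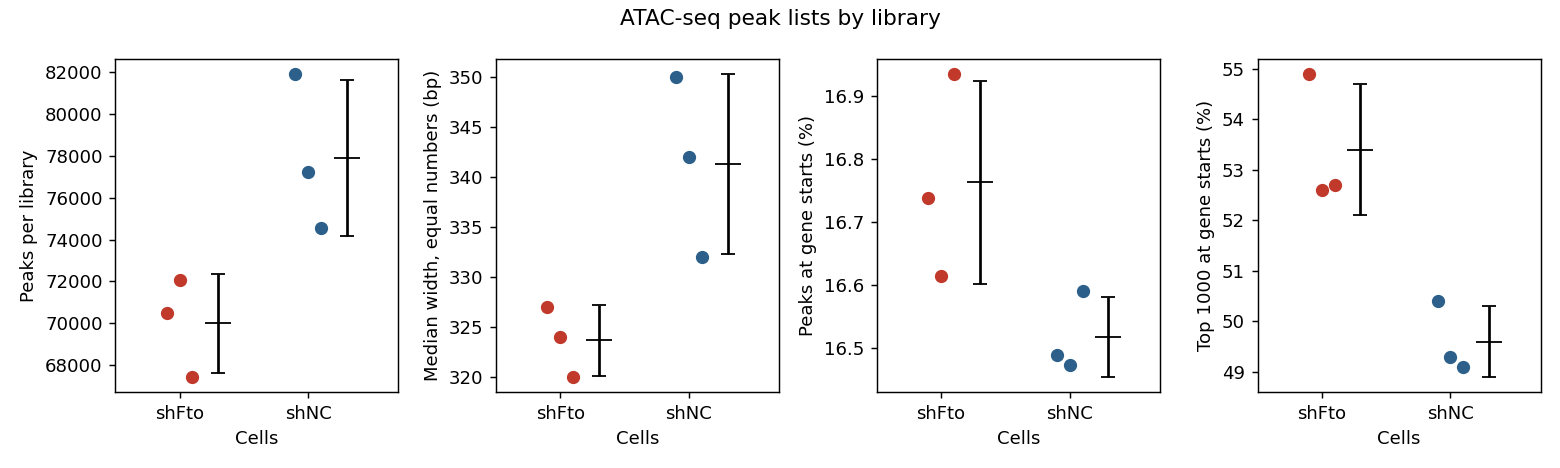
Each panel shows 1 measure (vertical axis, with its unit) in the 3 shFto and the 3 shNC libraries, points for libraries, and beside them the mean with the SD. Vertical axes do not start at 0. Peak numbers and median widths are lower in every shFto library, and the shares at gene starts are higher.

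Promoters took a larger share of the strongest shFto peaks. Among the top 1000 peaks of each library, 54.9%, 52.6% and 52.7% in shFto and 50.4%, 49.3% and 49.1% in shNC cells lay within 1 kb of a protein-coding gene start. Only starts with a RefSeq promoter window were counted. No shFto library overlapped the shNC range, and the difference was 3.80 percentage points (exact permutation p = 0.1). Over all 67427 peaks the shares were 16.7%, 16.6% and 16.9% against 16.5%, 16.5% and 16.6%, a difference of 0.245 points (exact permutation p = 0.1). It was 1.501 points with all peaks (exact permutation p = 0.1), 1.18 with a -log10 q of at least 5 (p = 0.3) and 0.0653 within 250 bp of a start (p = 0.3), and the groups overlapped in the last 2 cases. The number of genes with an open start overlapped between the groups. Of the 17492 protein-coding genes with a RefSeq promoter window, 55.2%, 55.0% and 55.3% had a start peak in shFto libraries. In shNC libraries the shares were 55.1%, 55.0% and 55.1%.

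Spacing along the chromosomes overlapped between the groups at the settings chosen, and not at some others. Peaks with a neighbour within 1 kb made up 15.9%, 15.4% and 16.8% of the shFto lists and 15.1%, 15.3% and 15.7% of the shNC lists (exact permutation p = 0.2). Clusters of 5 or more peaks, joined across gaps of at most 12.5 kb, held 31.3%, 30.1% and 32.0% of shFto and 31.5%, 31.9% and 31.4% of shNC peaks (exact permutation p = 0.6). Without overlap (exact permutation p = 0.1 each), shFto lists had a smaller share in such clusters, with a difference of -3.62 points, among all peaks, among the top 20000 peaks (-0.265) and with gaps of at most 5000 bp (-0.759). The share with a neighbour was higher without overlap for neighbours within 500 bp (0.589 points) and among the top 20000 (0.458). There were 2823, 2703 and 2847 such clusters against 2767, 2815 and 2756. No list held 2 rows with 1 interval, so peaks with several summits were not listed apart.

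The fullest clusters were those of gene-dense stretches, named here by the number of peaks over the 6 libraries. A 361 kb stretch of chromosome 10 (chr10:79766823-80127682) with 24 genes, among them Gpx4, Stk11 and Polr2e, held 65, 64 and 66 shFto and 63, 68 and 66 shNC peaks. The histone gene cluster of chromosome 13 (chr13:23396413-23598237) held 45, 43 and 45 against 46, 43 and 42. The stretch around Epha2 on chromosome 4 held 42, 38 and 42 against 42, 43 and 44. The stretch around Sox10, the neural crest factor of the melanocyte lineage, held 38, 35 and 40 against 43, 42 and 42 (chr15:79005626-79229416). The stretch with Ckb and Klc1 on chromosome 12 held 34, 35 and 33 against 40, 38 and 37. The last 2 were lower in every shFto library than in any shNC library, and the first 3 overlapped. No share over all clusters stands beside these 5. On chromosome 12 as a whole, the share of peaks was also lower in every shFto library (ratio of the group means 0.942).

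Merging the 6 lists, with an overlap of 1 bp, gave 88084 regions. Of these, 49718 (56.4%) had a peak in all 6 libraries and 12793 in 1 only. Every one of the top 1000 peaks of each library lay in a region found in all 6. The 5 strongest regions were nearly the same in every library. The first was the same in all 6, on chromosome 4 between 141113862 and 141114374, 25679 bp from the start of Szrd1. The next lay near Tsc22d4 and had rank 2, 2 and 2 in shFto and 2, 2 and 3 in shNC libraries.

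Libraries were more alike within a group than between groups. The Jaccard index, the share of regions that 2 libraries have in common, was 0.785, 0.788 and 0.778 within shFto and 0.814, 0.802 and 0.799 within shNC. Between the groups, the 9 pairs ranged from 0.749 to 0.767. Every pair within a group was therefore above every pair between groups, and the mean within minus between was 0.0358 (exact permutation of the group labels, p = 0.1, the smallest possible).

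**Figure D2:**
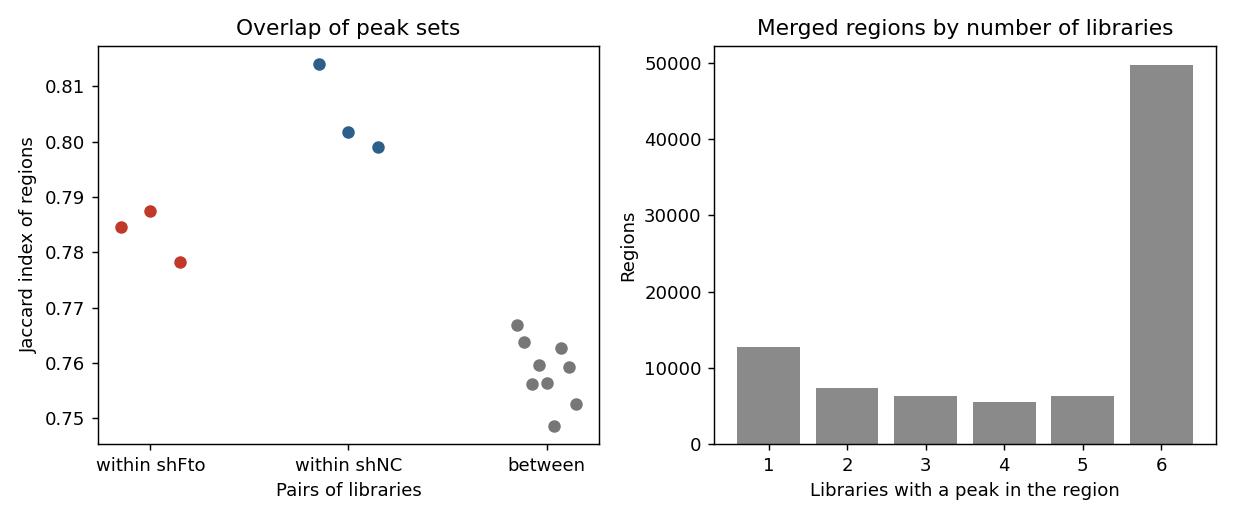
The left panel gives the Jaccard index (vertical axis, not from 0) of each pair of libraries within shFto (3), within shNC (3) and between the groups (9). The right panel gives the number of merged regions by how many of the 6 libraries had a peak there, with 49718 in all 6.

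More regions had a peak in shNC libraries alone than in shFto libraries alone. A peak in all 3 shNC and no shFto library was found in 1461 regions (1.66% of 88084), and the reverse in 774 (0.879%). Leaving out any 1 library, which eases the demand on 1 group, gave 1213 to 1608 shFto-only regions and always more shNC-only regions, from 2053 to 2192. Lists were also more alike within shNC than within shFto. Peaks found in no other library numbered 2231, 2565 and 2423 in shFto and 1670, 1804 and 2100 in shNC lists. The part of this in the counts was not tested, and a region without a listed peak may still be open. With all peaks in place of equal numbers, there were 2511 shNC-only and 353 shFto-only regions. Both kinds lay mostly away from promoters. Gene starts made up 4.65% of the shFto-only and 3.29% of the shNC-only regions, against 13.4% of all regions.

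By the naming rule, 4 regions are given in each direction, with their ranks among 67427 peaks. With peaks in shFto libraries alone, a 376 bp region inside B4galt4, which encodes a galactosyltransferase (chr16:38753622-38753997), ranked 29844, 28758 and 36307. The RNA of B4galt4 was 6.68 ± 0.897 CPM (RNA counts scaled to equal library size) in shFto and 3.68 ± 1.04 in shNC cells (SD, n = 3, edgeR adjusted p = 0.00843), a call lost without shFto library 1. The others lay in or near Ldhd, Lrrc1 and Serp2, and RNA of Serp2 went the other way, with a log2 fold change of -0.72 (edgeR adjusted p = 0.00336). With peaks in shNC libraries alone, the region near Plin2, which encodes a lipid droplet coat protein (chr4:86683700-86684103), ranked 20776, 20408 and 19464. Plin2 RNA was higher in shFto cells, opposite to the region (log2 fold change 0.24, edgeR adjusted p = 0.0492), a call lost by DESeq2 and without any 1 library other than shNC 3. The other 3 were nearest to Dtwd1, Zcchc4 and Pappa, those of Dtwd1 and Pappa more than 50 kb from the start.

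Strength was then compared in the 49718 regions with a peak in all 6 libraries. The -log10 q was replaced by its rank within the library, and the rank by its normal score, a scale on which 0 is the middle region and 1 is 1 SD stronger. Of these regions, 1636 (3.29%) differed between shFto and shNC cells (limma, adjusted p under 0.05). Of them, 369 (0.742%) were stronger and 1267 (2.55%) weaker in shFto cells, so that 77.4% of the calls were weaker. At an unadjusted p under 0.05 there were 10618. In 14449 regions (29.1%) the ranks of the groups did not overlap, and these were split about evenly, 7360 stronger and 7089 weaker. The median difference over all regions was 0.03 score units, and among calls it was 0.75 for the stronger and -0.76 for the weaker.

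That count depended on how the spread between replicates was modelled. Without any 1 shNC library, limma called 0 regions, although 8732 to 9019 had an unadjusted p under 0.05, and without shFto library 1, 2 or 3 it called 297, 249 or 308. The spread fell with strength, from a median SD of 0.415 score units in the weakest of 5 equal classes to 0.0784 in the strongest, while the fit assumes 1 common level. A fit that lets the spread follow strength, added after seeing the data, called 6323 regions (12.7%), 2397 (4.82%) stronger and 3926 (7.90%) weaker, which is 62.1% weaker. It kept 1479 of the 1636 calls in the same direction, and called 4224 to 5389 regions when any 1 library was left out. Both fits are given below where they differ.

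**Figure D3:**
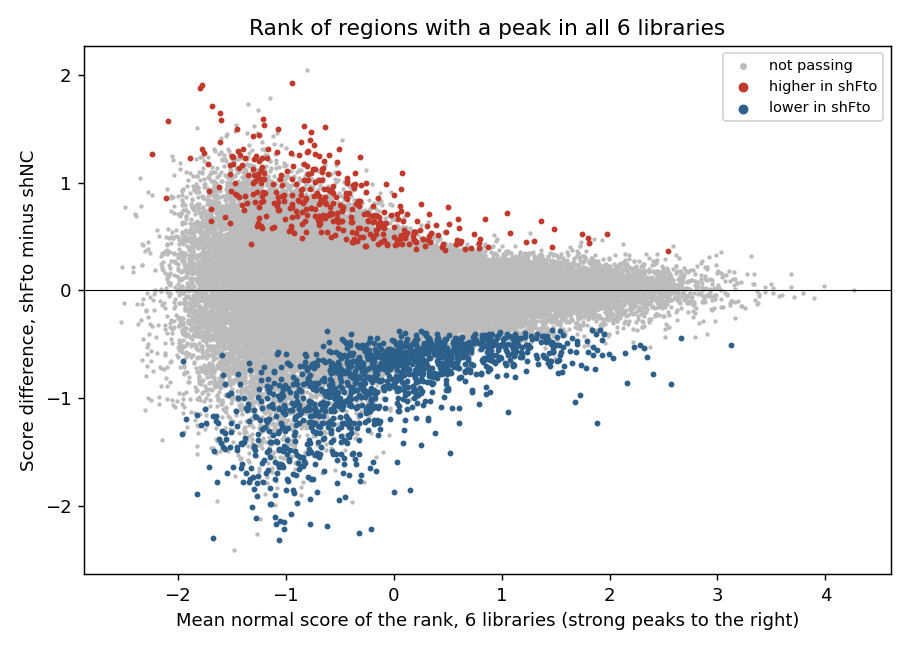
Each point is 1 of 49718 regions, with the mean score over 6 libraries on the horizontal axis and the score difference, shFto minus shNC, on the vertical axis. Red marks the 369 regions called stronger in shFto and blue the 1267 called weaker. The cloud narrows to the right, where regions are strongest.

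Weaker regions lay mostly away from gene starts. Gene starts here are those with a RefSeq promoter window, so regions at the starts of other genes count as elsewhere. Of 39670 regions elsewhere, 1227 (3.09%) were weaker and 331 (0.834%) stronger, while of 10048 at gene starts 40 (0.398%) were weaker and 38 (0.378%) stronger. With the spread following strength, 9.42% of the regions elsewhere were weaker and 4.97% stronger, and at gene starts 1.88% were weaker and 4.24% stronger. Both fits thus gave more weaker than stronger regions away from gene starts. At gene starts the first fit gave about equal numbers, and the second 426 stronger against 189 weaker. By strength, weaker calls made up 1.88% of the strongest of 5 equal classes, 3.14% of the next to weakest and 2.16% of the weakest, and stronger calls 0.141%, 1.30% and 1.19%. With the spread following strength the order turned, with 9.03% weaker and 6.53% stronger in the strongest class and 4.21% and 1.92% in the weakest.

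The start of Fto itself did not pass in rank. The region of 592 bp over its start (chr8:91313130-91313721) had rank 322, 373 and 238 in shFto and 287, 246 and 247 in shNC libraries, among the strongest of the 49718. The ranges overlapped and the score difference was -0.06 ± 0.0762 (SE, n = 3 each, limma adjusted p = 0.705). Fto RNA was 31.7, 33.5 and 28.3 CPM in shFto and 107, 108 and 91.8 CPM in shNC libraries. By edgeR it fell by 1.72 ± 0.0979 on the log2 scale (SE, n = 3 each, adjusted p = 1.6e-10), lower in every shFto library as the label says.

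Jun, Junb and Cebpb, which encode AP-1 and C/EBP factors, did not differ at their starts by limma. The region at the Jun start ranked 7271, 4311 and 4783 in shFto and 5490, 5124 and 5364 in shNC libraries (limma adjusted p = 0.991). Jun RNA fell by 0.59 on the log2 scale (edgeR adjusted p = 0.000194). That at the Cebpb start ranked 16555, 17102 and 14175 against 16129, 15023 and 15659 (limma adjusted p = 0.921). The nearer Junb region ranked 23848, 30741 and 26844 against 23007, 24918 and 20841 (limma adjusted p = 0.350). Of 10 AP-1 genes and 6 C/EBP genes with a start region in all 6 libraries, none passed limma, against 38 stronger and 40 weaker of 10048 start regions in all. At an unadjusted p under 0.05 there were 5, those of Batf3, Atf3, Ddit3, Cebpz and Cebpd, beside 21.4% of all fitted regions. A gene was counted once, by its start region with the smallest limma p. The shares over all start regions count single regions at known starts, so the 2 are not alike. With the spread following strength, Ddit3 and Cebpz were stronger, and Atf3 and Cebpd weaker, beside 4.24% stronger and 1.88% weaker of all start regions. The strand of Cebpd was not known, so its region may lie at the other gene end.

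Melanocyte genes were open in both kinds of cell, and Trpm1 changed most clearly among them. Of 20 lineage genes, 16 had a start region in all 6 libraries, Slc24a4 had one in 5, and Oca2, Kit and Ednrb had none. Of the markers of T cells and other immune cells, 13 of 19 had no peak at the start in any library, and of keratinocyte, fibroblast and endothelial markers 13 of 16 had none. The starts of Ptprc, Cd3e, Epcam and Pecam1 were among those with no peak, while Coro1a, Spi1, Cd4, Cd3g, Krt14, Pdgfrb and Col1a1 had 1 in all 6 libraries. Where the strand of a gene was not known, either end counted as its start. This held for Spi1, Cd4, Pdgfrb and Col1a1, among others, whose regions may lie at the other gene end.

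The region over the Trpm1 start, the promoter printed first above, spans 728 bp (chr7:64185029-64185756). Its rank was 14275, 14016 and 11401 in shFto and 26672, 36676 and 37286 in shNC libraries, stronger in every shFto library. The score difference was 1.09 ± 0.172 (SE, n = 3 each, limma adjusted p = 0.0372, and 4.07e-08 with the spread following strength). Trpm1 RNA was 259, 259 and 249 CPM in shFto and 62.4, 54.0 and 65.8 CPM in shNC libraries, a log2 fold change of 2.08 ± 0.0870 (SE, edgeR adjusted p = 4.39e-12). RNA and rank were thus both higher in shFto cells. The first fit's rank call was lost without any 1 library (adjusted p from 0.0790 to 0.118) and when ranked by fold enrichment (0.0867).

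The start of Mc1r, the melanocortin receptor, ranked 703, 577 and 721 in shFto and 1692, 1660 and 1114 in shNC libraries. These groups did not overlap, and the difference of 0.33 ± 0.0836 (SE) missed the threshold of the first fit and passed the second (limma adjusted p = 0.0992 and 0.000564). Mc1r RNA did not pass (edgeR adjusted p = 0.391). The start of Tyrp1, which encodes a melanin enzyme, ranked 12710, 11852 and 12836 against 15679, 14446 and 14992, and did not pass either fit. The strand of Rab38, which encodes a GTPase of pigment granule traffic, was not known, so either end was taken as its start. Its strongest end region had a score difference of 0.07. A second region, inside the gene, had ranks 39938, 36141 and 39220 against 29287, 25062 and 30261, weaker in every shFto library. It missed the first fit and passed the second (limma adjusted p = 0.0532 and 0.0442), while Rab38 RNA was higher by 0.24 on the log2 scale (edgeR adjusted p = 0.0425), a call lost under the replicate block and without 4 of the 6 libraries. The Tyr start, of the rate-limiting enzyme of melanin synthesis, ranked 38625, 40047 and 36767 against 44121, 47671 and 43979, which did not pass (limma adjusted p = 0.106), and Tyr RNA was higher by 1.37 on the log2 scale. By limma, 1 of 16 melanocyte genes passed at a start region, Trpm1. With the spread following strength 4 did, Trpm1, Mc1r and Slc24a5 stronger and Rab38 weaker, the last at an end that may not be its start. Of all fitted regions within 50 kb of a melanocyte gene as the nearest, 2 of 102 were called stronger and 0 weaker, beside 0.742% and 2.55% of all regions. At RNA level 12 of 18 tested melanocyte genes rose and 0 fell, beside 15.9% and 16.9% of all tested genes.

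Among interferon-stimulated genes, the start of Irgm1, an immunity-related GTPase, was weaker. Its region (chr11:48872102-48872568) ranked 25211, 27018 and 24565 in shFto and 14333, 12411 and 13481 in shNC libraries. The score difference was -0.65 ± 0.0764 (SE, n = 3 each, limma adjusted p = 0.0228, and 4.84e-06 with the spread following strength). The first fit's call was lost without any 1 library (adjusted p from 0.0578 to 0.0950). Irgm1 RNA went the other way, from 47.8 ± 4.11 CPM in shNC to 67.2 ± 8.44 CPM in shFto cells (SD, n = 3, edgeR adjusted p = 0.00134). The other 12 interferon-stimulated genes with a start region in all 6 libraries did not pass the first fit. The second added Usp18, weaker, at an end that may not be its start.

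In the other lists, RNA changed at more genes than start regions did. Over all genes tested, 15.9% rose and 16.9% fell in RNA, and over all start regions the second fit called 4.24% stronger and 1.88% weaker. Of 22 glycolysis genes, 13 fell and 3 rose in RNA. Of the 21 with a start region in all 6 libraries, 0 passed the first fit there and 3 the second, all stronger (Slc2a3, Aldoc and Slc16a1). Slc16a1, the lactate transporter MCT1, ranked 6369, 7573 and 7424 against 10087, 10454 and 9020, with an RNA log2 fold change of 0.56. Of 83 fitted regions near glycolysis genes, 2 (2.41%) were called weaker and 0 stronger, beside 2.55% and 0.742% of all fitted regions. The 2 weaker regions lay nearest to Hk1 and Pfkp, a hexokinase and a phosphofructokinase, whose RNA fell by 0.59 and 0.60 on the log2 scale. Of 10 tested ID and BMP-SMAD genes, 8 rose in RNA and 0 fell, beside the same 15.9% and 16.9%. Of 10 genes with a start region in all 6 libraries, 0 passed the first fit there and Bmpr2 passed the second. Of 51 fitted regions near these genes, 1 near Smad6 was called stronger (1.96%), and 1 each near Id3 and Smad5 weaker (3.92% together). All of them lay away from the start. RNA of Smad6 and Id3, both higher in shFto cells, had log2 fold changes of 1.60 and 2.39. No start region passed the first fit in 17 m6A writers, erasers and readers or 14 MHC class I genes. Nor did one pass in 13 extracellular matrix and mesenchymal genes, 15 hypoxia genes or 15 ATF4 stress targets. The second fit added Virma, a subunit of the m6A writer, weaker, and Ddit4 and Ddit3 stronger and Slc7a5 weaker. These lists were chosen with results of these data known, and their median differences of the strongest start region lay between -0.04 and 0.11, beside 0.04 for all start regions, leaving aside the immune and the keratinocyte, fibroblast and endothelial markers with few members.

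The 10 regions with the smallest p in each direction were taken 1 per gene, with the nearest protein-coding gene within 50 kb. Genes with Gm or Rik symbols were left out, so other regions with a p as small are not named. The regions taken lay away from gene starts. Those stronger in shFto were nearest to Tmem30c, Zfp959, Tmco5, Pigt, Vcl, Hlcs, Ier5, Irf2bpl, Mtrf1l and Smim13, with score differences from 0.77 to 1.64 and limma adjusted p from 0.00941 to 0.0188. The region near Irf2bpl, a transcriptional regulator, was the strongest of them, at rank 10355, 8683 and 8990 against 23974, 21500 and 22365 (chr12:86836570-86837063). RNA of Irf2bpl was lower in shFto cells, with a log2 fold change of -0.61 (edgeR adjusted p = 0.000209), and so was that of Ier5, by 0.65, a call lost without shFto library 1. Inside Vcl, which encodes the adhesion protein vinculin, the ranks were 35225, 31409 and 32024 against 46365, 46548 and 45016. Vcl RNA was 43.7 ± 1.95 and 40.7 ± 3.15 CPM (SD, n = 3) and did not pass. Of these 10 genes, Hlcs alone had higher RNA that passed edgeR (log2 fold change 0.47, adjusted p = 0.0422), and that call was lost by DESeq2 and without 4 of the 6 libraries.

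Those weaker in shFto were nearest to Wdr95, Csf2rb, Snx24, Pnma5, Wdr66, Unc13d, Septin9, Cald1, Rhbdf2 and Elfn2, with score differences from -2.21 to -1.21 and limma adjusted p from 0.00941 to 0.0120. The region inside Rhbdf2, which encodes the inactive rhomboid iRhom2, was among the strongest of shNC cells (chr11:116621154-116621703). It ranked 329, 293 and 322 there and 5857, 5116 and 4406 in shFto libraries. Rhbdf2 RNA was 23.2 ± 2.60 CPM in shFto and 30.1 ± 1.88 CPM in shNC cells (SD, n = 3, edgeR adjusted p = 0.0196), a call lost without shFto library 1 or 2 or shNC library 1. A region inside Septin9, a cytoskeletal GTPase, ranked 40012, 43021 and 39468 against 9372, 8493 and 8024 (chr11:117255983-117256553). Septin9 RNA was 503, 489 and 529 CPM against 698, 691 and 627 CPM, lower in every shFto library (edgeR log2 fold change -0.41 ± 0.0820, SE, with adjusted p = 0.000904). The region near Csf2rb, the shared receptor chain of GM-CSF and IL-3, ranked 47852, 48373 and 48123 against 21730, 17686 and 16997. A region 2772 bp from the start of Pnma5 ranked 48655, 49044 and 49312 against 23137, 24626 and 25845. Pnma5 RNA was 17.1, 17.1 and 16.2 CPM against 51.3, 47.2 and 60.7 CPM (log2 fold change -1.66 ± 0.114 SE, edgeR adjusted p = 2.49e-09). RNA of Unc13d, which primes secretory granules, also fell, by 1.63 on the log2 scale from a low level. Of the 6 genes of these 10 that the RNA test covered, 5 fell and Cald1 did not pass. The call of Snx24 (log2 fold change -0.41, adjusted p = 0.0446) was lost by DESeq2, by scaling to library totals and without 4 of the 6 libraries.

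All 20 of these regions kept their direction when any 1 library was left out. That tests little, since they were chosen by p in these libraries and their groups do not overlap. None passed the first fit without any 1 shNC library (adjusted p from 0.0618 to 0.0874), and 16 or 17 passed without 1 shFto library. With the spread following strength, 18 to 20 passed in each of the 6 cases. Ranked by fold enrichment, 19 passed, and the region in Rhbdf2 did not (score difference -0.52, limma adjusted p = 0.0555).

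**Figure D4:**
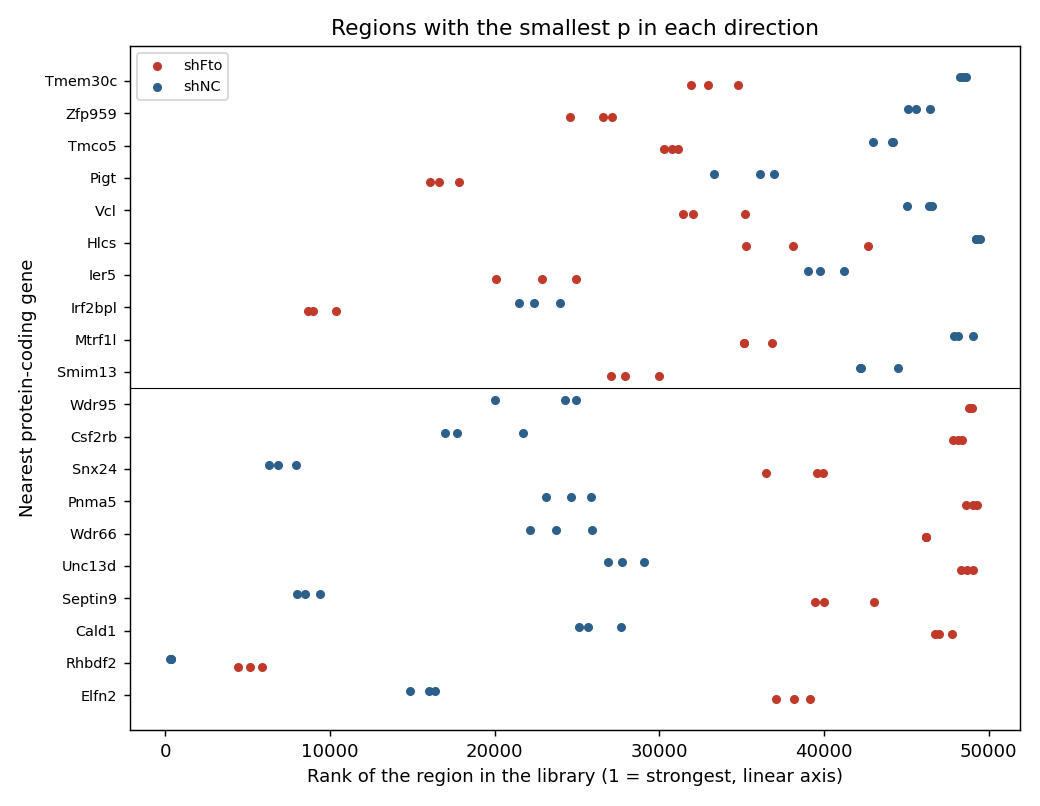
Ranks (horizontal axis, 1 is the strongest of 49718 regions) of 20 regions in the 3 shFto (red) and 3 shNC (blue) libraries. They are those with the smallest p, 1 per gene and within 50 kb of a gene without a Gm or Rik symbol, labelled by that gene. Regions stronger in shFto are above the line and weaker ones below it, and no region has overlapping groups.

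Some genes had several called regions, nearly all of them in the weaker direction, which also had more calls. The 852 weaker regions within 50 kb of a gene start were nearest to 785 genes, of which 60 had 2 or more, and the 270 stronger regions were nearest to 267 genes, of which 3 had 2. Bahcc1, a chromatin protein gene, had 3 weaker regions of 14 fitted, with score differences from -1.76 to -0.61, and its RNA was 127 CPM in shFto and 213 CPM in shNC cells (log2 fold change -0.75, edgeR adjusted p = 8.32e-06). Pdzrn3, a ubiquitin ligase gene, had 3 of 5, and its RNA fell by 0.64. Phb, which encodes prohibitin, had 3 of 9, and its RNA fell by 0.54. Septin9 had 3 of 34. Scarb1, the scavenger receptor for HDL, had 3 of 13 with RNA of 137 and 139 CPM, and Orm1 and Tafa5 had 3 of 5 and 3 of 6 without an RNA value. The 3 genes with 2 stronger regions were Enpp2, Lpin2 and Megf6, and RNA of Enpp2 and Lpin2 was higher, with log2 fold changes of 0.30 and 0.28.

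Beside the regions, the RNA of 11718 genes was tested, of which 15.9% were higher and 16.9% lower in shFto cells (edgeR, adjusted p under 0.05). Among 10407 tested genes that were nearest to any fitted region, 16.4% were higher and 17.6% lower. Near stronger regions, 38 of 187 genes (20.3%) were higher and 26 (13.9%) lower. Near weaker regions, 67 of 563 (11.9%) were higher and 151 (26.8%) lower. Where the region lay at the start itself, 11 of 33 genes with a stronger region were higher and 2 lower, and 4 of 29 with a weaker region were higher and 15 lower. With the spread following strength these were 91 higher and 42 lower of 382 (23.8% and 11.0%), and 19 higher and 52 lower of 146 (13.0% and 35.6%). Of 47 tested genes with 2 or more weaker regions, 19 were lower and 4 higher. Near regions anywhere, the second fit gave 23.7% and 12.8% of 1189 genes near stronger regions, and 12.4% and 26.2% of 1565 near weaker ones. Most genes near a called region had no RNA change that passed. Regions of 1 gene and genes of 1 stretch are not independent, and no test of these shares was made.

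The promoters printed above show both kinds of case. The Aldh1l1 region ranked 1274, 1179 and 915 in shFto and 3115, 3606 and 3493 in shNC libraries, stronger in every shFto library (limma adjusted p = 0.0320). Its RNA was 62.1, 66.7 and 60.9 CPM against 37.4, 36.4 and 35.2 CPM, also higher (log2 fold change 0.80, edgeR adjusted p = 3.11e-06). The Myo7a region ranked 4775, 4472 and 6252 against 1780, 1405 and 1793, weaker in every shFto library (limma adjusted p = 0.0340). Its RNA was 571, 542 and 615 CPM against 705, 714 and 662 CPM, also lower (log2 fold change -0.27, edgeR adjusted p = 0.0172), a call lost without any 1 of 4 libraries. The Sgsm1 region ranked 18063, 25752 and 26088 against 9953, 9873 and 10798 (limma adjusted p = 0.0431), and RNA was lower by 1.19 on the log2 scale (edgeR adjusted p = 1.22e-05). The Emp1 region, with 2 AP-1 matches, ranked 15138, 13689 and 12502 against 7544, 7722 and 7150, weaker in every shFto library (limma adjusted p = 0.0420). Emp1 RNA was 55.2, 57.5 and 51.9 CPM against 36.1, 29.1 and 32.9 CPM, higher in every shFto library (log2 fold change 0.75, edgeR adjusted p = 2.32e-05). Rank and RNA went the same way in 4 of these 5 genes, which were chosen for their changes, and opposite ways in Emp1. The first fit's rank calls of Aldh1l1, Myo7a and Emp1 were lost without any 1 library and when ranked by fold enrichment (adjusted p = 0.456, 0.229 and 0.0704), and that of Sgsm1 without any 1 library other than shFto 1. With the spread following strength, all 5 passed whichever library was left out.

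Whole chromosomes differed in their share of peaks. The shares of the groups did not overlap on 10 of 21 chromosomes (47.6%), 6 higher and 4 lower in shFto cells, and the mean score did not overlap on 18 (85.7%). No chromosome passed after adjustment, since 3 against 3 libraries cannot go below p = 0.1 (smallest adjusted exact permutation p = 0.21 for shares and 0.117 for scores). Chromosome 16 held 3.26%, 3.28% and 3.24% of the peaks of the shFto lists and 3.07%, 3.06% and 2.99% of the shNC lists, a ratio of 1.07. Chromosome 18 held 2.79%, 2.82% and 2.83% against 3.07%, 3.03% and 2.96%, a ratio of 0.933. Chromosome 12 held 4.54%, 4.55% and 4.53% against 4.78%, 4.75% and 4.93%, a ratio of 0.942. These were the largest shifts in each direction.

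RNA shifted on the same chromosomes. The median score difference was 0.13 on chromosome 16, where the median log2 fold change of 370 genes was 0.23, with 35.4% of genes higher and 2.97% lower. It was -0.08 on chromosome 18, where 300 genes had a median of -0.13, and -0.04 on chromosome 12, where 415 genes had -0.08. Over 20 chromosomes without Y, the score difference and the median log2 fold change had a Pearson's r of 0.827 and a Spearman's rho of 0.780, as a description across chromosomes of the same libraries. They had the same sign on 15. On chromosomes 2, 5, 7, 8 and X the median score difference was above 0 and the difference of the mean scores below it.

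The shifts ran along these chromosomes. In windows of 10 Mb with at least 50 regions and 10 genes, all 8 on chromosome 16 had a positive median score difference, from 0.13 to 0.15, and a positive median RNA log2 fold change, from 0.14 to 0.34. All 9 on chromosome 18 were negative in score, from -0.14 to -0.01, and 8 of 9 in RNA. All 11 on chromosome 12 were negative in score and 10 of 11 in RNA. Over the 236 windows of the genome, 158 were positive and 78 negative in score. With each library's mean score set to 0 on every chromosome, added after seeing the data, limma called 1568 regions, 1442 of them among the 1636. The RNA counts near called regions were not recomputed within chromosomes.

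**Figure D5:**
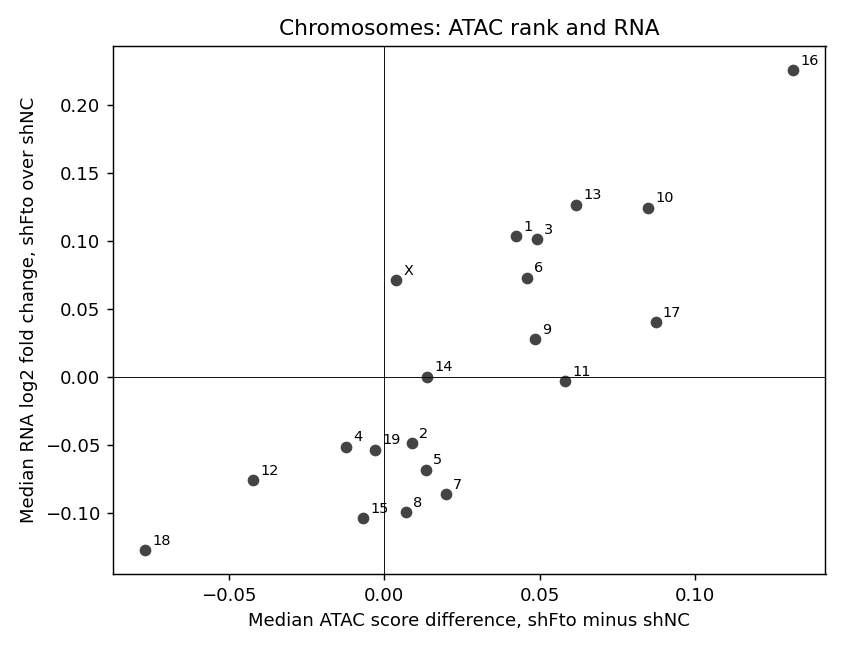
Each point is 1 chromosome, numbers and X, with the median score difference of its regions (horizontal axis, shFto minus shNC) and the median RNA log2 fold change of its tested genes (vertical axis). Chromosome 16 is highest on both axes and chromosome 18 lowest on both.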

How the data were processed

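Per the labels, ATAC-seq libraries came from nuclei with a transposase kit and RNA-seq libraries from total RNA with a stranded kit. MACS2 2.1.3, Picard, deepTools, Bowtie2 2.3.5, STAR 2.7.0f and Trim Galore 0.6.0 stand in the submitters' processing notes with the build mm10 and no role for each, and peak thresholds are not given in the sources used here. The deposited ATAC-seq lists hold 1 library each and give every peak a fold enrichment ratio, a -log10 p, a -log10 q and a score of 10 times the -log10 q. Replicates were not pooled in them. The deposited RNA-seq table holds raw counts per gene, 11152404 to 19665589 a library.

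Regions with a peak in all 6 libraries were tested with limma 3.58.1 on normal scores of the rank by -log10 q, and RNA with edgeR 4.0.16 (quasi-likelihood test, TMM scaling, default expression filter) in R 4.3.3. Both used Benjamini-Hochberg adjustment and a threshold of 0.05. Single values were compared by two-sided exact permutation in Python 3.11.15. Gene starts came from RefSeq promoter windows on GRCm38.p6, which cover 79.9% of 21887 protein-coding genes. For the others either gene end was taken in the gene lists and for the nearest gene. Shares of peaks, regions and genes at gene starts used the starts with a promoter window alone. A gene was set beside a region when its start was the nearest within 50 kb. Of 11718 tested RNA symbols, 99.7% matched RefSeq.

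The rule named the targeted gene, then Jun with Junb and Cebpb, and up to 3 of each of 13 lists by smallest p at the start. It also named the 10 smallest p in each direction, 1 per gene. The nearest protein-coding gene had to lie within 50 kb and have no Gm or Rik symbol. The rule further named 4 regions with peaks in 1 group alone in each direction and the 5 fullest clusters. Not all of them are described. Other genes named were chosen after their values were seen. The members, lists and rule were chosen with earlier results of these data known. The limma fit and the counting of regions with peaks in 1 group alone were tried on simulated data, and the other steps were not.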

Additional observations from a re-analysis of the deposited data

How the results depend on the processing

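The difference in the share of peaks in clusters of 5 or more, shFto minus shNC, ranged from -0.576 to 0.0556 points when 1 library was left out. It was above 0 without shFto replicate 2. The difference in the share with a neighbour within 1 kb was -0.139 points with a -log10 q of at least 5, and -0.476 for neighbours within 5 kb. Regions with peaks in 1 group alone numbered 3380 to 3703 when 1 library was left out (shFto 1213 to 1608, shNC 2053 to 2192). They were 989 among the top 20000 peaks (348 and 641), 353 and 2511 with all peaks, and 350 for shFto with the stricter q. Chromosomes whose shares did not overlap numbered 10 to 16 when 1 library was left out.

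Calls by rank ranged from 0 to 308 when 1 library was left out (0 to 23 stronger, 0 to 285 weaker). They were 943 among the top 20000 (656 weaker), 4214 with regions in at least 3 libraries (1305 and 2909), 2927 on quantile-normalised log2 values (816 and 2111), and 6323 with the variance trend (2397 and 3926). With that trend and without shFto 1, 2 or 3 there were 5198, 5389 and 5131 (1658, 1640 and 1564 stronger, 3540, 3749 and 3567 weaker), and without shNC 1, 2 or 3 there were 4224, 4229 and 4530 (1560, 1565 and 1715 stronger, 2664, 2664 and 2815 weaker). A group left with 2 libraries is assumed to vary like the other.

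With the replicate number as a block, limma called 0 regions, 0 stronger and 0 weaker (9556 at an unadjusted p under 0.05). Same-numbered libraries did not deviate together (residual correlations -0.00293, 0.00713 and 0.00215), and the labels do not pair them.

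Uncalled differences near 0 changed sign. Ranked by fold enrichment they were 0.0638 at Fto, 0.114 at Jun, 0.147 at the outer Junb region and 0.0698 at Cebpb. The nearer Jun region ranged from -0.0635 to 0.0898 when 1 library was left out (0.0898 without shFto replicate 1, 0.00807 without shNC replicate 2) and gave 0.0416 with chromosomes centred. The outer one ranged from -0.0808 to 0.0474 (-0.0808 without shFto replicate 3, -0.00531 and -0.000761 without shNC replicates 1 and 3) and gave -0.0154 among the top 20000. Cebpb ranged from -0.0661 to 0.0145, above 0 without shFto replicate 2. The lists limited to chromosomes 1 to 19, X and Y equal the full lists. Read depth is unknown.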
